A study of Mus musculus with 6 samples.

Results

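Transcripts of neutrophils, red blood cells and choroid plexus epithelium were followed across RNA sequencing libraries of CAMs, macrophages of the meninges, perivascular spaces and choroid plexus that are associated with the central nervous system. The 32 genes were fixed by symbol as markers of cells outside the sorted population, 14 for neutrophils, 6 for the erythroid lineage and 12 for choroid plexus epithelium. All 32 were found among the 35598 gene identifiers of the deposited tables. The cells came from brains of male C57BL/6 mice and were sorted as CD3-CD11b+CD45+CD206+, that is without the T cell marker CD3 and with the myeloid marker CD11b, the leukocyte marker CD45 and the mannose receptor CD206. The young group held 3 libraries from mice aged 2 months and the aged group 3 libraries from mice aged 18 months. No transgene, injury or treatment is named for either group. The labels do not say whether a library came from 1 brain or from a pool, nor whether different animals stand behind the libraries of one age. The p-values below therefore reflect the spread between these 6 libraries alone, which may be technical.

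The libraries held 26605077 to 33306093 counts, with 9875 to 12543 genes at 5 counts or more. Levels are CPM, the counts of a gene scaled to the library total. A gene at 0 counts could have been present at up to 3 counts, which is 0.0901 to 0.113 CPM depending on the library, and this limit covers counting error only. The sort label was checked against 20 CAM genes, of which at least 19 had more than 3 counts in every library. Their summed level was 27309, 32189 and 27229 CPM at 2 months and 18013, 11322 and 15014 CPM at 18 months, and the groups did not overlap. Pf4, Ms4a7 and Mrc1 were the most abundant of the 20, so the sum does not stand for each gene. The fitted change from young to aged was below 0 for 14 of them and above 0 for 6, where 50.7% of all genes tested lay below 0. The 15 microglia genes summed to 8273, 7454 and 9369 CPM at 2 months and 11511, 23473 and 15183 CPM at 18 months. Aged replicate 3 stood apart in its blood transcripts and young replicate 3 and aged replicate 3 in their choroid plexus transcripts, so the results that rest on them are also given without them.

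Neutrophils are short-lived granulocytes that are packed in the bone marrow with granule proteins in a fixed order. Azurophil granule genes such as Mpo and Elane are transcribed first in promyelocytes, and genes of the specific granules such as Camp, Ngp and Ltf next. Gelatinase granule genes such as Mmp9 come later, while S100a8 and S100a9 are among the most abundant transcripts of circulating cells. Red blood cells lose their nucleus but reticulocytes, their youngest circulating form, still carry globin mRNA. The choroid plexus is a vascular fringe in the brain ventricles whose epithelium secretes cerebrospinal fluid and the thyroid hormone carrier transthyretin (Ttr), and it harbours CAMs of its own. Neither red cells nor choroid epithelium carry the leukocyte marker of the gate, and neutrophils carry CD11b and CD45 but are not known for CD206.

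Together the 32 genes took 49740 CPM in young replicate 1, 23538 CPM in young replicate 2 and 56064 CPM in young replicate 3. In aged replicates 1, 2 and 3 they took 30617, 20759 and 7841 CPM. The 3 groups of genes did not follow one another across the libraries. Neutrophil transcripts were highest in young replicate 1, globin transcripts in young replicate 3, and choroid plexus transcripts in young replicate 3 and aged replicate 3. In aged replicate 3, neutrophil and globin transcripts were nearly missing while choroid plexus transcripts were at their second highest level.

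**Figure D1:**
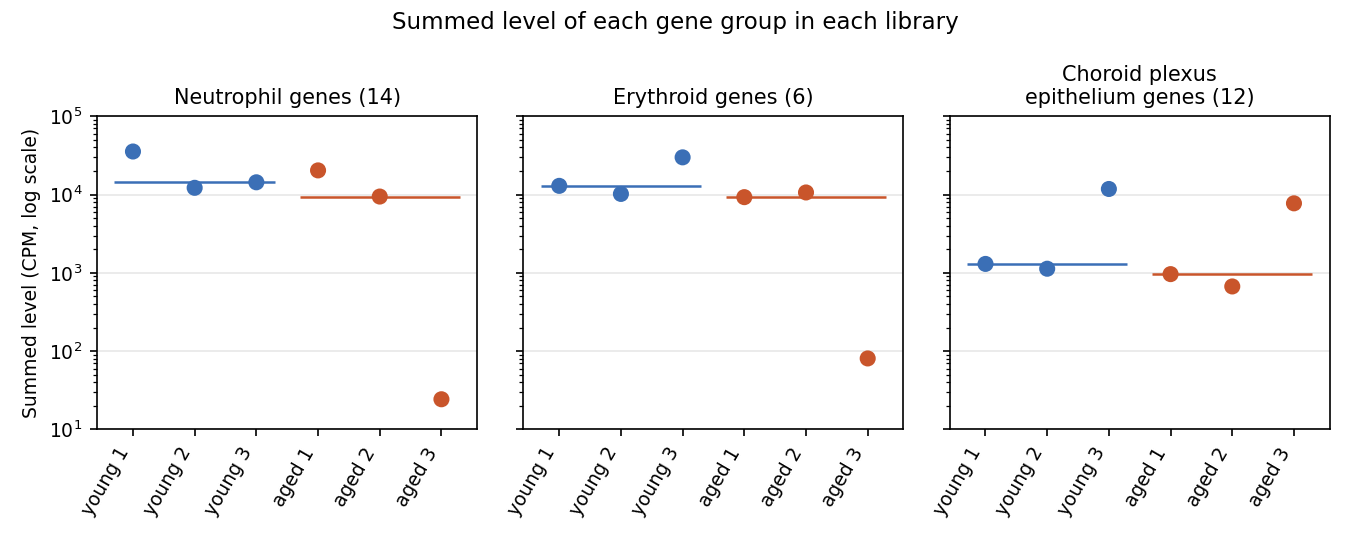
Summed level (CPM, log scale) of the neutrophil, erythroid and choroid plexus epithelium genes in each of the 6 libraries, with young libraries in blue, aged libraries in orange and a line at the median of each group. Aged replicate 3 lies at 24.3 CPM for neutrophil and 80.8 CPM for erythroid genes, and young replicate 3 and aged replicate 3 lie above the other libraries for choroid plexus genes.

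The neutrophil genes summed to 35506, 12208 and 14359 CPM at 2 months and 20375, 9442 and 24.3 CPM at 18 months. Between the highest and lowest young library the sum differed 2.91-fold, and between aged replicates 1 and 2 it differed 2.16-fold. With aged replicate 3 the aged range was 837-fold. Most of the sum in aged replicate 3 came from the receptor gene Csf3r, at 18.1 CPM. S100a8 and S100a9 together made up 10.7% of it. The groups overlapped. In bulk RNA of this kind, fewer cells of a type and less RNA per cell cannot be told apart.

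S100a8 and S100a9, whose proteins form the calcium-binding heterodimer calprotectin, led the neutrophil group. S100a8 was at 16129, 5887 and 6222 CPM at 2 months and 9735, 3363 and 0.732 CPM at 18 months. S100a9 was at 15256, 5230.1 and 6225 CPM at 2 months and 7975, 3076 and 1.86 CPM at 18 months. Both were therefore abundant in every library except aged replicate 3, where S100a8 had 22 counts and S100a9 56. The pair kept almost the same proportion in the other libraries, with 1.06, 1.13 and 1.00 S100a8 counts per S100a9 count in young replicates 1 to 3 and 1.22 and 1.09 in aged replicates 1 and 2. Between genes, length has to be taken into account: on the deposited TPM scale, S100a8 in young replicate 1 was at 27961 TPM, against 1370 TPM for Camp, 628 TPM for Ngp and 450 TPM for Retnlg.

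Genes of the specific granules ordered the libraries differently from S100a8. Ngp, encoding neutrophilic granule protein, was at 1478, 426 and 409 CPM at 2 months and 772, 1747 and 0.666 CPM at 18 months. The cathelicidin gene Camp, the precursor of an antimicrobial peptide, was at 1637, 279 and 518 CPM at 2 months and 545, 580 and 0.233 CPM at 18 months. For Ltf, which encodes the iron-binding protein lactoferrin, the values were 93.0, 50.7 and 6.43 CPM at 2 months and 71.4, 234 and 0 CPM at 18 months. Lcn2, which encodes the siderophore-binding protein lipocalin 2 and is also made by other cells under inflammation, was at 336, 77.5 and 45.9 CPM at 2 months and 158, 338 and 0 CPM at 18 months. In CPM, aged replicate 2 had the highest Ngp, Ltf and Lcn2 of the 6 libraries although its S100a8 was the second lowest. Of all genes tested, 22.5% were highest in that library. Its lead in Lcn2 was slight, at 338 CPM against 336 CPM in young replicate 1. Scaled by TMM, Ngp and Lcn2 were highest in young replicate 1, and of the 3 genes only Ltf stayed highest in aged replicate 2.

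The proportions among neutrophil genes set aged replicate 2 apart. Per 100 counts of S100a8, Ngp had 9.16, 7.24, 6.58 and 7.93 counts in young replicates 1 to 3 and aged replicate 1, and 51.9 counts in aged replicate 2. Ltf had 0.577, 0.861, 0.103 and 0.734 counts per 100 in the same 4 libraries and 6.95 in aged replicate 2, and Lcn2 had 2.08, 1.32, 0.737 and 1.62 against 10.04. Camp was also highest there, with 17.2 counts per 100 against 4.74 to 10.1. Retnlg, a resistin-like gene of mature neutrophils, went the other way, with 2.26, 1.86, 13.3 and 10.5 counts per 100 S100a8 counts in the first 4 libraries and 0.318 in aged replicate 2. Mmp8, encoding neutrophil collagenase, had 0 counts in aged replicate 2, against 988 to 2151 counts in young libraries and 1034 in aged replicate 1. Not all later genes were low there. Ly6g had 0.728 counts per 100 S100a8 counts in aged replicate 2, against 0.270 to 0.732 in the same 4 libraries. For Mmp9 the values were 0.481 against 0.130 to 1.35. Aged replicate 3 was left out of these proportions because it had only 22 S100a8 counts. These proportions were described after their values were seen and were not tested.

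**Figure D2:**
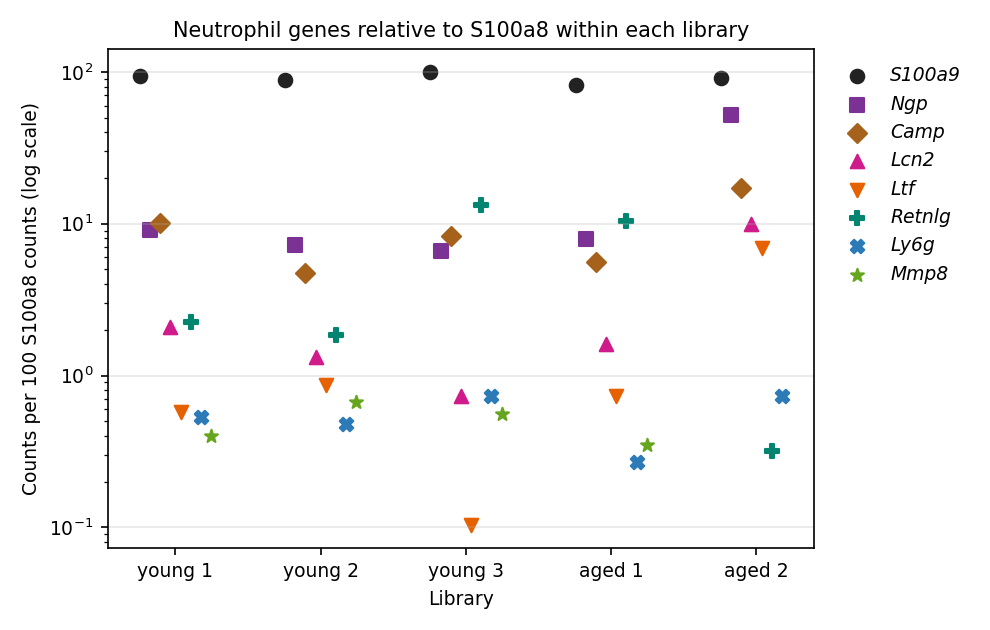
Counts of 8 neutrophil genes per 100 counts of S100a8 (log scale) in the 5 libraries other than aged replicate 3, 1 marker per gene and library, with no marker for Mmp8 in aged replicate 2, where it had 0 counts. S100a9 lies near 100 throughout, while in aged replicate 2 Ngp reaches 51.9 and Retnlg is at 0.318.

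Among genes of later or mature neutrophils, Retnlg was at 365, 109 and 826 CPM at 2 months and 1018, 10.7 and 0 CPM at 18 months. Ly6g, which encodes the surface antigen used to identify mouse neutrophils, was at 86.2, 28.4 and 45.5 CPM at 2 months and 26.3, 24.5 and 0 CPM at 18 months. Mmp8 was at 64.6, 39.2 and 34.9 CPM at 2 months and 33.8, 0 and 0.666 CPM at 18 months. For the gelatinase gene Mmp9 the levels were 56.1, 79.4 and 25.5 CPM at 2 months and 12.6, 16.2 and 2.03 CPM at 18 months. For Ly6g, Mmp8 and Mmp9 the aged libraries all lay below the young ones, as they did for 6.84% of all genes tested. For Mmp8 this ended when levels were scaled by TMM, and for Mmp8 and Ly6g on the TPM scale.

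The receptor genes differed from the granule genes. Csf3r, the receptor for the granulocyte growth factor G-CSF, was at 5.58, 1.39 and 1.41 CPM at 2 months and 23.6, 53.8 and 18.1 CPM at 18 months. The aged libraries all lay above the young ones, as they did for 7.78% of all genes tested, and Csf3r was not low in aged replicate 3, where S100a8 was at 0.732 CPM. Csf3r was thus the 1 neutrophil gene of the 12 tested whose libraries separated by age with the aged ones higher. The summed microglia genes were also higher in each aged library, and which cells gave the Csf3r counts was not tested. Cxcr2, the receptor for chemokines that release neutrophils from the marrow, stayed at or below 3.40 CPM, with 40, 0 and 0 counts in young and 104, 20 and 2 counts in aged libraries.

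The azurophil granule genes were not found. Elane, encoding neutrophil elastase, had 0 counts in all 6 libraries, and Mpo, encoding myeloperoxidase, had 1 count in young replicate 2 and 0 elsewhere. At these depths, levels under 0.0901 to 0.113 CPM could not be seen. Prtn3 and Ctsg, 2 further azurophil genes, also had 0 counts in every library.

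Other neutrophil genes, a list of 29 drawn up alongside the 32, were also highest in young replicate 1 and lowest in aged replicate 3. Their sum was 1351, 520 and 524 CPM at 2 months and 1120, 684 and 118 CPM at 18 months. Wfdc21, a protease inhibitor-like gene, was at 417, 168 and 173 CPM at 2 months and 336, 111 and 0.0999 CPM at 18 months, and Chil3, a chitinase-like gene shared with some macrophages and monocytes, at 371, 41.8 and 12.3 CPM and 155, 234 and 0 CPM. In aged replicate 3 only 4 of the 29 genes had more than 3 counts, against 9 to 19 in the other libraries. These were Fpr1, Fpr2, Ifitm6 and Ltb4r1. Fpr1, the formyl peptide receptor, was at 34.0 CPM there against 59.5 to 200.2 CPM elsewhere. Ifitm6, an interferon-induced transmembrane protein gene, held most of the sum there, at 81.3 CPM, within its range of 75.0 to 187 CPM elsewhere. The monocyte gene Ly6c2 had 0 counts in aged replicate 3 and lay between 11.8 and 60.9 CPM elsewhere, while the summed level of 7 monocyte genes was 278 CPM there, within the 221 to 492 CPM of the other libraries.

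The erythroid group was almost wholly globin. Mouse adult haemoglobin joins alpha chains, from the paired genes Hba-a1 and Hba-a2 on chromosome 11, with beta chains, from Hbb-bs and Hbb-bt on chromosome 7. The members of each pair are near copies: their coding sequences differ at 1 of 429 bases for the alpha pair and at 1 of 444 bases for the beta pair. Reads of a pair can therefore be split wrongly between its genes, and the sum of a pair is the firmer value. The 4 genes had their highest and their lowest level in the same libraries. Their promoters are shown as a description, and a link between promoter and level was not tested. The 120 bases before the RefSeq start of each gene (build GRCm38.p6) run 5′ to 3′ on the strand of the gene, with matches to TATAA and CCAAT on either strand in capitals.
Hbb-bs (chr7:103827929-103828048, minus strand): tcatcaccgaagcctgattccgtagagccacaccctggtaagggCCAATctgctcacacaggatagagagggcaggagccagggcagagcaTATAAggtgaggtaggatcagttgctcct
Hbb-bt (chr7:103813924-103814043, minus strand): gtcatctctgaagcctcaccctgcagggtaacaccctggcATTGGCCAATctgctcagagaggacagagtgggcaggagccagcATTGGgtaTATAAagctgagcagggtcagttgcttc
Hba-a1 (chr11:32283552-32283671, plus strand): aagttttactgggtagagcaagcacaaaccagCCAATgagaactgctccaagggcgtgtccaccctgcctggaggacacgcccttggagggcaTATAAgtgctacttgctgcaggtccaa
Hba-a2 (chr11:32296372-32296491, plus strand): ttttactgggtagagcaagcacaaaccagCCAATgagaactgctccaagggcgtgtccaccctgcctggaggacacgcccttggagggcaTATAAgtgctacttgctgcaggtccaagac

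The TATAA match began 27 to 30 bases before the start in all 4 genes. A forward CCAAT match began 75 bases before it in Hbb-bt, 76 in Hbb-bs, 88 in Hba-a1 and 91 in Hba-a2. Hbb-bt had 2 further CCAAT matches on the other strand, beginning 80 and 36 bases before the start, the first directly beside its forward match. Of 32851 RefSeq promoters in windows of the same length, 11.8% held TATAA, 21.3% held CCAAT and 2.56% held both. The alpha windows were 95.1% identical and the beta windows 74.6% identical when aligned. A match of letters is a description and says nothing of binding here.

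The erythroid genes summed to 12932, 10199.5 and 29907 CPM at 2 months and 9277, 10645 and 80.8 CPM at 18 months. The young libraries spread 2.93-fold, led by young replicate 3, and aged replicates 1 and 2 differed 1.15-fold. With aged replicate 3 the aged range was 132-fold. The groups overlapped in CPM because aged replicate 2 exceeded young replicate 2. Scaled by TMM they did not, the lowest young sum being 10100.3 CPM and the highest aged sum 9862 CPM.

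Hbb-bs was at 5354, 3649 and 12912 CPM at 2 months and 3934, 4320.3 and 43.2 CPM at 18 months. Hba-a2 was at 4989, 4501 and 11119 CPM at 2 months and 3452, 4057 and 26.5 CPM at 18 months. Hba-a1 was at 1733, 1653 and 4039 CPM at 2 months and 1345, 1569 and 11.05 CPM at 18 months, and Hbb-bt at 856, 393 and 1828 CPM and 547, 681 and 0.0333 CPM. All 4 were highest in young replicate 3, as were 16.9% of all genes tested, and lowest in aged replicate 3, where none exceeded 43.2 CPM. For both alpha genes the aged libraries all lay below the young ones in CPM, as they did for 6.84% of all genes tested. These near copies are not independent of each other, and on the TPM scale their groups overlapped. Per length, Hbb-bs (21561 TPM) and Hba-a2 (15256 TPM) were the highest of the 4 in young replicate 3.

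Alpha and beta globin counts stayed near one another in each library. The alpha pair had 1.08, 1.52 and 1.03 counts per count of the beta pair in young replicates 1 to 3, and 1.07, 1.12 and 0.869 in aged replicates 1 to 3. Aged replicate 3, where the 4 genes held 2428 counts in all, had the lowest of these ratios. Within the beta pair, Hbb-bt had 10.8 to 16.0 counts per 100 Hbb-bs counts in the 5 other libraries. Aged replicate 3 had 1 Hbb-bt count beside 1298 Hbb-bs counts, a split that the near identity of the pair makes uncertain.

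Genes of red cell precursors were low and patchy beside the globins. Alas2, encoding the first enzyme of erythroid haem synthesis, was at 0, 4.06 and 1.94 CPM at 2 months and 0.0327, 18.8 and 0 CPM at 18 months. It lies opposite Apex2 on the other strand, which had 263 counts over all libraries against 783 for Alas2, and the library kit does not mark strand. Slc4a1, the red cell anion exchanger band 3, had 238 counts in young replicate 3, 1 count in aged replicate 1 and 0 elsewhere. Among 28 other erythroid genes found in the files, Klf1, an erythroid transcription factor, was at 11.2 CPM in young replicate 3 and at most 0.365 CPM elsewhere. It was picked after its values were seen. The 3 most abundant genes of that list, Fech, Car2 and Bpgm, are also active outside red cells. Car2, a carbonic anhydrase, was at 113.9 and 62.8 CPM in young replicate 3 and aged replicate 3 and at 0 to 5.79 CPM elsewhere. Fech, the last enzyme of haem synthesis, was at 56.6 CPM in aged replicate 3, within its range of 16.7 to 80.7 CPM elsewhere. The 13 platelet genes summed to 9.13 to 59.6 CPM and stood at 38.7 CPM in aged replicate 3. Of the 13, 3 had more than 3 counts there, and Ppbp, a platelet chemokine gene, was highest of the 6 libraries at 18.2 CPM while Gng11, a G protein subunit gene, had 0 counts.

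**Figure D3:**
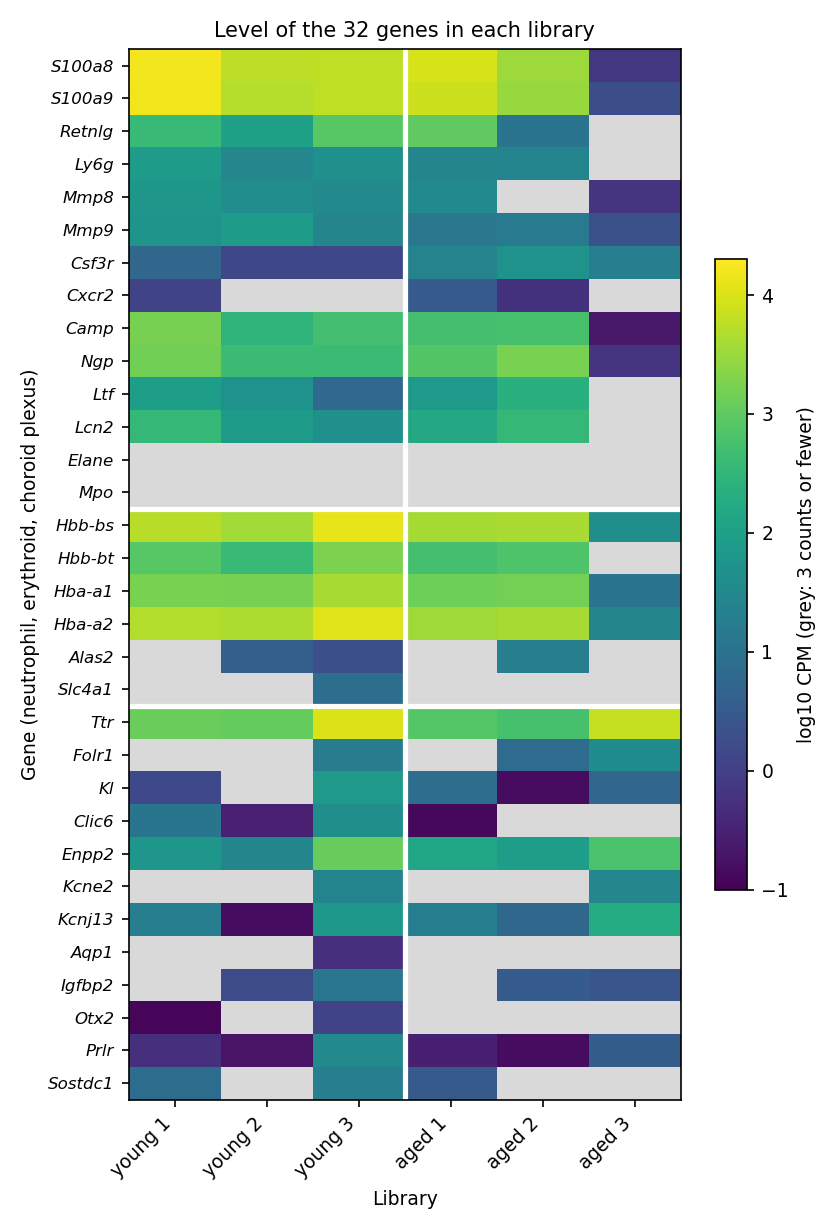
Level of the 32 genes (rows, log10 CPM) in the 6 libraries (columns), with white lines between the neutrophil, erythroid and choroid plexus genes and between ages, and grey for 3 counts or fewer. In aged replicate 3 the neutrophil and globin rows are dark or grey while Ttr, Enpp2 and Kcnj13 stay bright.

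The choroid plexus genes summed to 1302, 1130.4 and 11797 CPM at 2 months and 965, 671 and 7735 CPM at 18 months. Young replicate 3 and aged replicate 3 were therefore 5.94-fold or more above each of the other libraries, and the 4 others lay within 1.94-fold of one another. Ttr made up most of each sum. It was at 1200.3, 1101 and 10348 CPM at 2 months and 803, 563 and 6846 CPM at 18 months. Enpp2, which encodes the lysophospholipase autotaxin and is also expressed by other brain cells, was at 61.9, 26.8 and 1158 CPM at 2 months and 131, 91.3 and 632 CPM at 18 months.

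Of the 8 tested choroid plexus genes, 5 (Ttr, Enpp2, Kcnj13, Folr1 and Prlr) were higher in young replicate 3 and in aged replicate 3 than in all 4 others, a pattern shown by 6.22% of all genes tested. The same held for Kcne2, which was too low in most libraries to be tested. Both libraries were singled out by the levels of these same genes, so the count is a description only. Kcnj13, an inward-rectifier potassium channel of the epithelium, was at 18.9, 0.150 and 68.2 CPM at 2 months and 18.8, 5.84 and 179 CPM at 18 months. It lies inside Gigyf2 on the other strand, which had 6654 counts over all libraries against 8724 for Kcnj13. Kcne2, a channel subunit, was at 24.3 and 28.6 CPM in young replicate 3 and aged replicate 3, and had 0 counts in the other 4. Folr1, a folate receptor that carries folate into cerebrospinal fluid, was at 0.0300, 0 and 17.2 CPM at 2 months and 0.0981, 7.26 and 37.6 CPM at 18 months, and it overlaps Anapc15 on the other strand, with 2198 counts against 1858. The prolactin receptor gene Prlr was at 0.510, 0.188 and 33.4 CPM at 2 months and 0.294, 0.152 and 3.63 CPM at 18 months.

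The 2 libraries with high Ttr did not hold the same set of genes. Kl, encoding the ageing-linked hormone co-receptor klotho, was at 70.7 CPM in young replicate 3 and 5.59 CPM in aged replicate 3, with 0 to 8.07 CPM elsewhere. The chloride channel gene Clic6 was at 44.5 CPM in young replicate 3 and had 2 counts in aged replicate 3. In young replicates 1 and 2 Clic6 was at 11.4 and 0.301 CPM, and in aged replicates 1 and 2 it had 4 and 0 counts. Sostdc1, a secreted antagonist of bone morphogenetic protein signalling, was at 18.9 CPM in young replicate 3, 7.63 CPM in young replicate 1 and 3.17 CPM in aged replicate 1, with 0 counts in the other 3. All 12 choroid plexus genes had more than 3 counts in young replicate 3, against 8 in aged replicate 3 and 6 to 8 in the others. Igfbp2, an insulin-like growth factor binding protein, was at 11.8 CPM in young replicate 3 and 0 to 3.56 CPM elsewhere. The transcription factor gene Otx2 (34 counts in young replicate 3) and the water channel gene Aqp1 (15 counts there) had 4 counts or fewer in every other library, and reads of Otx2 cannot be told from those of its antisense neighbour Otx2os1, which had 274 counts over all libraries.

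**Figure D4:**
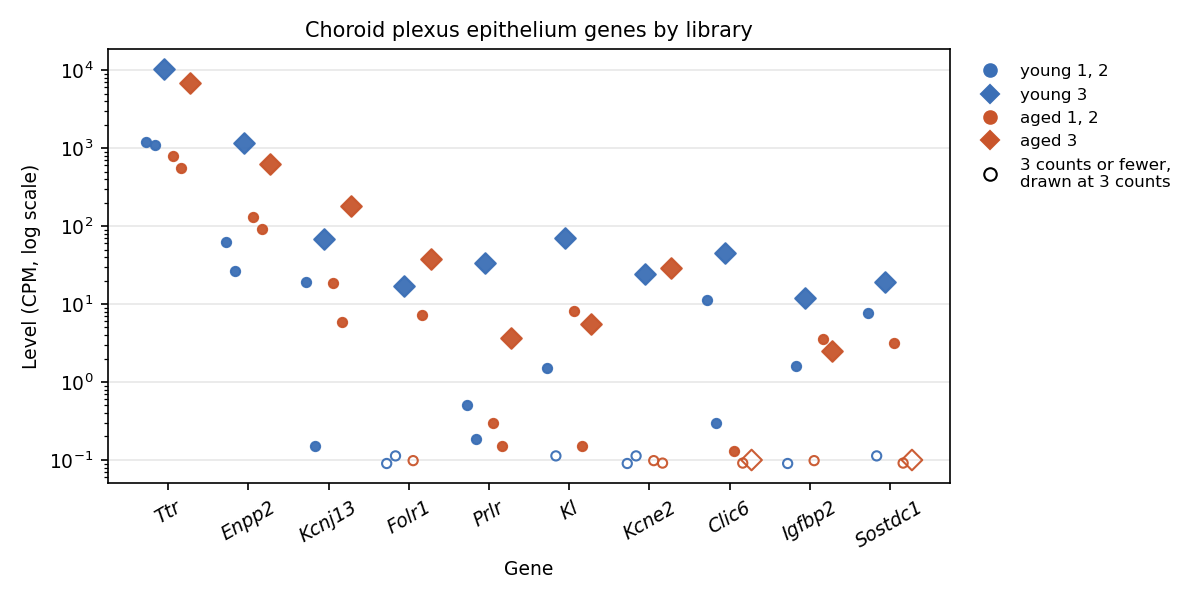
Level (CPM, log scale) of 10 choroid plexus epithelium genes in each library, with young libraries in blue, aged in orange, diamonds for young replicate 3 and aged replicate 3, and hollow marks drawn at 3 counts for libraries with 3 counts or fewer. Both diamonds are highest for Ttr, Enpp2, Kcnj13, Folr1, Prlr and Kcne2, while Clic6 and Sostdc1 are high in young replicate 3 only of that pair.

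Per 100 counts of Ttr, Enpp2 had 11.2 counts in young replicate 3 and 9.23 in aged replicate 3, and 5.16, 2.43, 16.3 and 16.2 in young replicates 1 and 2 and aged replicates 1 and 2. Clic6 had 0.430 per 100 in young replicate 3 and 0.000972 in aged replicate 3. So Enpp2 kept its proportion to Ttr between the 2 libraries with high Ttr and Clic6 did not. Of the other choroid plexus genes, none exceeded the 179 CPM of Kcnj13 in aged replicate 3.

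Other choroid plexus genes, 34 found of a list drawn up alongside the 32, summed to 258, 192 and 791 CPM at 2 months and 139, 87.3 and 340 CPM at 18 months, again highest in young replicate 3 and aged replicate 3. 1500015O10Rik, which led the list, was at 24.0, 35.0 and 210.4 CPM at 2 months and 0.686, 11.5 and 102.9 CPM at 18 months. The ion transporter gene Slc12a2 was at 65.1 CPM in young replicate 3 and 59.1 CPM in aged replicate 3, beside 60.1 CPM in young replicate 1. The 9 ependymal genes summed to 87.5 and 57.8 CPM in these 2 libraries and to 0.638 to 14.5 CPM elsewhere, with 3 of the 9 above 3 counts in both. These 3 genes were Mia (27.4 and 43.5 CPM), 1110017D15Rik (32.6 and 6.69 CPM) and Dynlrb2 (27.5 and 7.62 CPM). Mia and 1110017D15Rik were lower in every other library, but Dynlrb2 reached 9.25 CPM in young replicate 2. The ependymal transcription factor gene Foxj1, picked after its values were seen, had 0 counts in both libraries. It also had 0 counts in young replicates 1 and 2, and 21 counts at most, in aged replicate 2. The part of ependyma in the choroid plexus levels of these 2 libraries was not tested. Genes of fibroblasts and plexus stroma (7 genes, 3.16 to 15.9 CPM) and endothelium (8 genes, 20.2 and 27.99 CPM against 17.3 to 33.9 CPM) were not highest in both of them.

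No neutrophil, erythroid or choroid plexus gene passed the test between ages. Of the 32 genes, 25 had enough counts to be tested with edgeR's quasi-likelihood test, and 7 (Elane, Mpo, Slc4a1, Clic6, Kcne2, Aqp1 and Otx2) did not. At an adjusted p under 0.05, 0 of 25 were called higher in aged libraries, where 0.00938% of the 10661 genes tested were called, and 0 of 25 were called lower, where 0.0% were. At an unadjusted p under 0.05 there were 2 of 25, Mmp9 and Csf3r, against 605 of the 10661 genes tested. The smallest adjusted p among the 25 was 0.744, for Csf3r. Of the wider lists, 0 of 14 neutrophil, 0 of 8 erythroid and 0 of 14 choroid plexus genes tested were called by edgeR, with 2, 0 and 3 at an unadjusted p under 0.05, and their median log2 fold changes were -0.27, -0.26 and -1.34.

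Fitted log2 fold changes (aged minus young) were below 0 for 19 of the 25 genes, against 50.7% of all genes tested, and the 4 globin genes are not independent of one another. Without young replicate 3 they were below 0 for 13 of 25, against 48.3% of all genes then tested, and without aged replicate 3 for 19 of 26, against 52.1%. The median was -0.72 over 12 neutrophil genes, -1.45 over 5 erythroid genes and -0.91 over 8 choroid plexus genes, against -0.02 over all genes tested. Single libraries set these medians. Without young replicate 3 the choroid plexus median was 2.29 and the erythroid median -0.82, and without aged replicate 3 they were -2.42 and -0.86. Genes were filtered anew each time, which left 8 choroid plexus genes without young replicate 3 and 9 without aged replicate 3. The neutrophil median was -0.13 without aged replicate 3, -0.27 without young replicate 1 and -2.10 without aged replicate 1. For 13 of the 25 aged replicate 3 was the lowest library, where 22.1% of all genes tested had it lowest, and for 12 it was at least 10-fold under every other library, where 4.37% of all genes were. All 12 were neutrophil or globin genes. Aged replicate 3 was singled out by the levels of these same genes, so these counts are a description only. S100a8 was at 9413 ± 5819 CPM (SD, n = 3) in young and 4366 ± 4944 CPM at 18 months, with a log2 fold change of -1.15 (SE 1.77, edgeR adjusted p = 0.993). Without aged replicate 3 the log2 fold change was -0.56.

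Hbb-bs was at 7305 ± 4929.8 and 2766 ± 2366 CPM, a log2 fold change of -1.50 (SE 1.12, edgeR adjusted p = 0.986), and -0.24 without young replicate 3 and aged replicate 3. For Ttr the mean was 4216 ± 5310.1 CPM at 2 months and 2737 ± 3560.3 CPM at 18 months, with a log2 fold change of -0.58 (SE 1.11, edgeR adjusted p = 0.993). It became 1.29 without young replicate 3 and -2.68 without aged replicate 3, so the direction turned on 1 library. The same was so of Enpp2 (-0.51, and 2.69 without young replicate 3), Kl (-2.32, and 2.61), Prlr (-3.005, and 1.97) and Igfbp2 (-1.24, and 1.26). Kcnj13 (1.27) and Folr1 (1.41) became -1.25 and -0.88 without aged replicate 3. Sostdc1 had a log2 fold change of -3.02 (SE 2.90).

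The granule genes also changed sign with single libraries. Ngp (-0.06) and Lcn2 (-0.08) became 0.88 and 1.30 without young replicate 1 and 0.52 and 0.50 without aged replicate 3, and Ltf (0.82) became -0.44 without aged replicate 2. Retnlg (-0.29) became 0.56 without young replicate 3, 0.30 without aged replicate 2 and 0.30 without aged replicate 3. Cxcr2 (1.70) became -0.53 without aged replicate 1 and Alas2 (1.42) became -6.51 without aged replicate 2. Camp (-1.24), S100a9 (-1.32), Ly6g (-1.77), Mmp8 (-1.96), Mmp9 (-2.48), Csf3r (3.36), the 4 globin genes and Sostdc1 kept their direction whichever library was left out, but not their size. Camp was at -0.16 without young replicate 1. The ranges were -2.77 to -0.46 for S100a8, -2.82 to -0.63 for S100a9, -7.06 to -1.37 for Mmp8 and -11.12 to -1.85 for Sostdc1, and their most negative values came without aged replicate 1. The globin genes ranged from -2.01 to -0.75.

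Mmp9 and Csf3r had the smallest p-values of the 25. Mmp9 was at 53.7 ± 27.0 CPM at 2 months and 10.3 ± 7.36 CPM at 18 months, with a log2 fold change of -2.48 (SE 0.91, edgeR adjusted p = 0.756). Its range when 1 library was left out was -2.82 to -2.01. Csf3r was at 2.80 ± 2.41 CPM at 2 months and 31.8 ± 19.2 CPM at 18 months, with a log2 fold change of 3.36 (SE 1.198, edgeR adjusted p = 0.744), and 2.92 to 4.42 when 1 library was left out. DESeq2's Wald test called Csf3r higher (adjusted p = 0.0493), 1 of 113 genes that it called higher, or 1.06% of those tested, and gave Mmp9 an adjusted p of 0.125. It called 41 genes lower (0.385%), none of them among the 32, and gave no adjusted p for Mmp8, Ttr, Kl and Prlr.

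**Figure D5:**
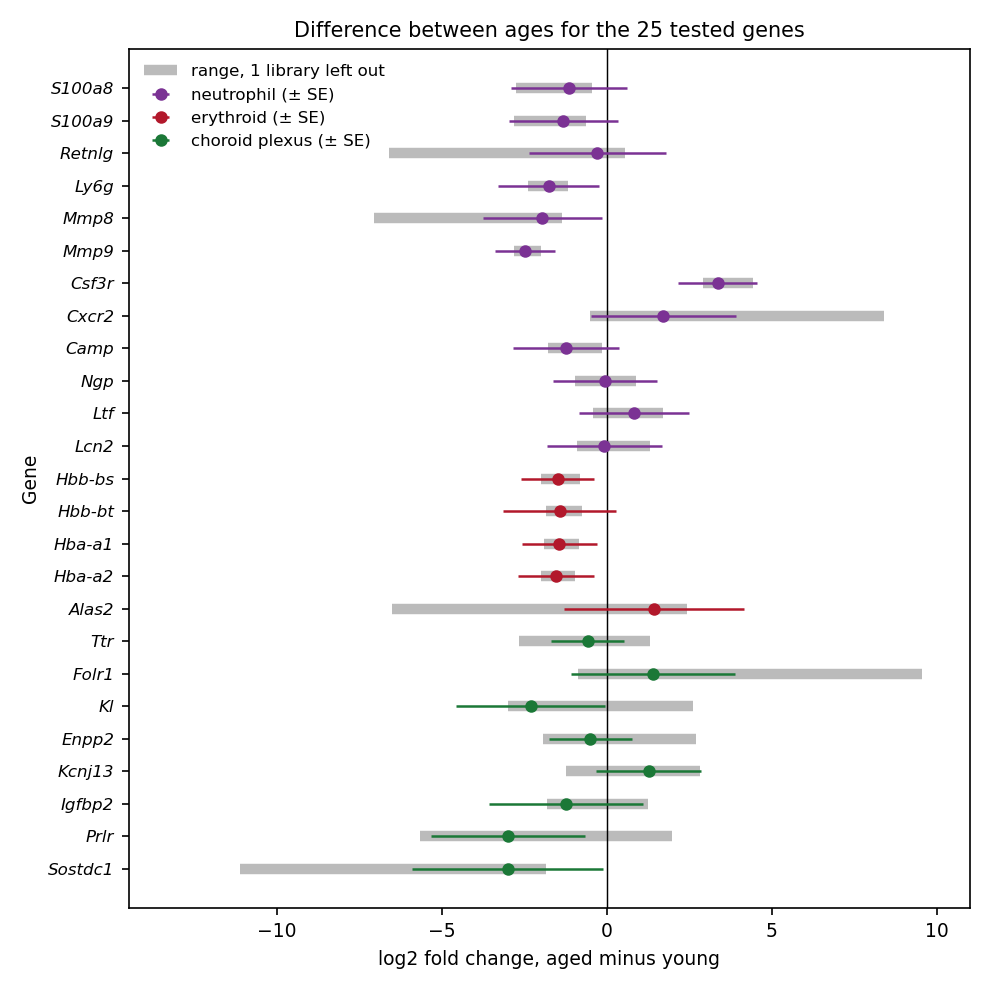
Log2 fold change (aged minus young, edgeR) of the 25 tested genes with its SE as a thin bar, coloured by gene group, and as a grey bar the range when each library was left out in turn. Csf3r lies at 3.36 and Mmp9 at -2.48 with short grey bars, while the grey bars of Ttr, Enpp2, Kl and Prlr cross 0.

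The spread among aged libraries rested largely on aged replicate 3. The highest aged library was at least 10-fold above the lowest for 22 of the 25 tested genes, against 38.7% of all genes tested, with Mmp9, Csf3r and Enpp2 as the exceptions. Aged replicates 1 and 2 alone differed at least 10-fold for 7 of 25 (Retnlg, Mmp8, Alas2, Folr1, Kl, Igfbp2 and Sostdc1), against 19.1% of all genes tested. Among young libraries it was so for 10 of 25, against 36.8% of all genes tested, and 7 of those 10 were choroid plexus genes. Young replicates 1 and 2 alone differed so for 6 of 25, against 21.0%. The median biological coefficient of variation (the spread between libraries beyond counting noise) was 126% for neutrophil, 90.3% for erythroid and 164% for choroid plexus genes. It was 117% for all genes tested, 41.2% for the 20 CAM genes and 40.0% for the 15 microglia genes. Without aged replicate 3 it was 66.2% for neutrophil, 44.1% for erythroid and 155% for choroid plexus genes, against 125% for all genes then tested.

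Aged replicate 3, with the lowest neutrophil and globin levels, held 30044347 counts, within the range of the others, but the fewest genes at 5 counts or more (9875). Its 13 mitochondrial genes summed to 62072 CPM, against 63681 CPM in aged replicate 2 and 81656 to 133234 CPM in the other libraries. The CAM genes stood at 15014 CPM there, between aged replicates 2 and 1, and Ptprc, which encodes CD45, at 239 CPM, the lowest of the 6, against 303 to 556 CPM elsewhere. The part of these differences in the low neutrophil and globin levels was not tested. Of the B cell genes, Cd79b was also lowest there, at 3.03 CPM against 17.0 to 101.2 CPM, while Ighm was at 195 CPM, within its range of 73.9 to 254 CPM.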

How the data were processed

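RNA sequencing of sorted brain macrophages was deposited as 1 table per library. Per the labels' protocols, about 500 pg of total RNA was converted with a template-switching kit, amplified over 13 PCR cycles and sequenced as single reads. The kit does not mark strand, and no molecular identifiers are named. Per the submitters' processing notes, the tools were bcl2fastq 2.20, DRAGEN, Picard, fastp and FastQC and the build mm10. What each did, and which annotation was used, is not given in the sources used here. Per the file headers, each table holds the estimated count of reads per gene and TPM, which the authors scaled for depth and effective length. Gene and effective lengths, per the file headers, were not used.

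Estimated counts were rounded, and identifiers were named from GENCODE M21, version ignored (35513 of 35598 matched). CPM was calculated from each library's total. The test was edgeR 4.0.16 in R 4.3.3 (quasi-likelihood F test, robust, filterByExpr, TMM, no covariate, two-sided, Benjamini-Hochberg over 10661 genes), and it was tested on simulated data. The SE was taken as the size of the log2 fold change divided by the root of F. DESeq2 1.42.0, limma-voom 3.58.1 and the settings named at the end were alternatives. All 32 genes are named, and of each other list up to 3 of the most abundant and any called, and some results are not reported here. Fpr2, Ifitm6, Ltb4r1, Prtn3, Ctsg, Klf1 and Foxj1 were chosen after their values were seen. The members and lists were chosen with earlier results of these data known. Promoters are from RefSeq (GRCm38.p6), where 25 of the 32 genes matched.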

Additional observations from a re-analysis of the deposited data

How the results depend on the processing

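With 3 libraries in each group, 0 of the 25 tested genes were called by edgeR, by limma-voom, with DESeq2 size factors, with no low-count filter, with at least 10 CPM in 3 libraries (18 of them tested), with library sizes that left out the 32 genes, and whichever library was left out. The DESeq2 Wald test called 1. Over all genes edgeR called 1 higher and 0 lower. The numbers were 113 and 41 by DESeq2, 51 and 11 where no low-count filter was set, 0 and 0 by limma-voom, which had 936 at an unadjusted p under 0.05, 0 higher without the libraries numbered 3, and 0 to 2 higher and 0 to 1 lower with 1 library left out.

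Log2 fold changes changed size and sign. In limma-voom S100a8 was at -4.74, S100a9 at -4.38, Retnlg at -5.79, Mmp8 at -6.13 and Hbb-bt at -4.62, each farther from 0 than in edgeR, and Ltf was at -1.85, Alas2 at -0.96, Kl at 0.40, Enpp2 at 0.54 and Igfbp2 at 0.20. Without both libraries numbered 3, Retnlg was at 1.13, Ngp at 0.21, Lcn2 at 0.066, Kl at 2.43, Enpp2 at 1.23 and Igfbp2 at 0.94. With 1 library left out the ranges were -6.60 to 0.56 for Retnlg, -0.53 to 8.40 for Cxcr2, -0.96 to 0.88 for Ngp, -0.44 to 1.69 for Ltf, -0.92 to 1.30 for Lcn2, -6.51 to 2.44 for Alas2, -2.68 to 1.29 for Ttr, -0.88 to 9.56 for Folr1, -2.99 to 2.61 for Kl, -1.95 to 2.69 for Enpp2, -1.25 to 2.83 for Kcnj13, -1.82 to 1.26 for Igfbp2 and -5.67 to 1.97 for Prlr. The median over choroid plexus genes ranged from -2.42 without aged replicate 3 to 2.29 without young replicate 3, and was 0.62 without both. Genes were filtered anew in each fit, so these medians are over different sets of genes. They cover 8 choroid plexus genes with all libraries, 9 without aged replicate 3, 8 without young replicate 3 and 6 without both. Over all genes the median ranged from -0.11 to 0.051. These medians, and the 10-fold counts without the libraries numbered 3, were added after seeing the data. The cause was not tested.

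Libraries of the 2 ages share replicate numbers in the labels. Deviations from the group means correlated across genes at -0.026 to 0.022 for same-numbered libraries and at -0.023 to 0.032 for the others. Values taken over all genes tested cannot exclude a link between same-numbered libraries that touches few genes, so whether the numbers pair them stays unknown. Of the young libraries, replicate 3 alone correlated best with its own number. With a replicate block edgeR still called 1 gene higher and 0 lower, and Ltf was at -0.92, Kl at 1.15, Enpp2 at 0.63 and Igfbp2 at 0.23. The range of the summed neutrophil genes among aged libraries was 837-fold in CPM and 3107-fold in TPM. Csf3r, the largest part of that sum in aged replicate 3, was at 18.1 CPM and 4.66 TPM there. The ranges of the erythroid and choroid plexus sums in the other scalings were within 1.5 times those in CPM.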
